A study of Rattus norvegicus with 28 samples.

Results

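The collagens and the structural proteins around them were followed in endothelial cells taken from normal and transplanted rat hearts. Members were all genes whose symbol is Col, a number, a and a number, and 17 further genes given by name (Postn, Fn1, Sparc, Tnc, Lox, Loxl1, Loxl2, Bgn, Dcn, Lum, Fbn1, Eln, Fbln1, Fbln2, Thbs1, Thbs2 and Cdh11). Of these, 57 were measured among 14217 genes, 41 of them collagens and 16 of them from the named genes, with the probe set of the highest endothelial mean standing for each gene. Thbs1 and Col4a3 had no probe set named in the annotation used and were not analysed here. The members were split by role into 12 fibroblast collagens, 7 basement membrane collagens, 22 other collagens, 5 matricellular and adhesive proteins, 3 cross-linking enzymes, 3 small leucine-rich proteoglycans, 4 elastic fibre proteins and the cadherin Cdh11.

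All animals were male rats. Normal hearts came from DA (Dark Agouti) or Lewis rats without a transplant. Allografts were DA hearts placed in the neck of Lewis recipients by a cuff method, and isografts were Lewis hearts placed in Lewis recipients in the same way. Grafts were taken 2, 3 or 4 days later. Cells carrying CD45 were removed from the minced heart (antibody clone Ox1) and cells carrying CD31 were then collected with magnetic beads (clone 3A12), so that each of 24 endothelial arrays, 3 for each of 8 groups, holds an enriched and not a pure population. Leukocytes of allografts, labelled as Lewis cells, were measured on 4 arrays, with 1 on day 2, a pair on day 3 and 1 on day 4. Isografts were compared with normal Lewis and allografts with normal DA endothelium, so the 3 days of a graft type share their normal arrays.

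Fibrillar collagens form the tensile cables of the heart's interstitium and are made mainly by fibroblasts. Basement membrane collagens form the thin sheet on which endothelial cells sit, and endothelial cells make much of it themselves. Matricellular proteins such as periostin and tenascin-C are not load bearing, are low in the adult heart, and appear in wounds, where they steer how cells attach and move; the lysyl oxidases then cross-link collagen and elastin.

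Values are log2 RMA signals, and differences are graft minus normal on the same log2 scale, with their standard error (SE). A gene is called at an adjusted p under 0.05 (limma, Benjamini-Hochberg over 14217 genes). The series text describes same-group arrays as biological replicates. The sources used here do not say which animals they came from, so the p-values measure the spread between these arrays. That spread is estimated for each gene over all 8 endothelial groups together. The p-values of isografts therefore also carry the spread between allograft arrays, and counts with only the compared groups are given at the end. The median SE of a difference between 2 groups was 0.165. The endothelial label fitted the markers: the mean of 13 endothelial markers lay between 11.9 and 12.5 in every array, and Pecam1, which encodes CD31, had group means of 11.44 to 12.03 and was not called in any graft comparison. Of the 13, Vwf rose by 0.72 and Kdr and Icam2 fell on day 2 of allografts, and on day 4 these 2 and Emcn and Tek fell. Cdh5 has no probe set named in the annotation used. The fraction was not free of other cells, since the mean of 10 pan-leukocyte markers was 6.412 to 6.998 in normal hearts and 7.46 to 9.53 in grafts. That of 11 macrophage markers was 5.88 to 6.27 in normal hearts and 7.07 to 9.69 in grafts. Of these macrophage markers 4, 10 and 11 rose in the isograft comparisons and 11, 10 and 11 in those of allografts. Ptprc, which encodes CD45, rose by 2.02 to 3.47 in every comparison but day 2 of isografts, and Cd68 by 2.18 to 2.92 on days 3 and 4 of isografts and days 2 and 4 of allografts. Of 8 T cell markers 1, 1 and 2 rose in isografts and 3, 5 and 8 in allografts, and of 6 neutrophil markers 4 rose on day 2 of allografts and 0 in the other comparisons. Of 11 cardiomyocyte markers 3, 7 and 4 fell in isografts and 3, 0 and 3 in allografts. Their mean was 7.25 to 8.11 in normal Lewis and 6.04 to 6.76 in normal DA arrays, without overlap. The part of these cells in the matrix results was not tested.

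Among the members every call was a rise, and 12 of the 57 rose in at least 1 graft comparison. For isografts 1, 4 and 8 members rose (days 2, 3 and 4), where 1.06%, 1.80% and 2.61% of all genes rose. In allografts the counts were 4, 3 and 11, beside 3.53%, 1.55% and 7.19% of all genes. As shares of the 57 members these were 1.75%, 7.02% and 14.0% in isografts and 7.02%, 5.26% and 19.3% in allografts, so the single call on day 2 of isografts is near the share of all genes. No member fell with limma on any day in either graft type, where 0.422%, 0.732% and 0.556% of all genes fell in isografts and 2.45%, 0.724% and 4.26% in allografts. Col18a1, whose protein carries the endostatin fragment, rose in all 6 comparisons. Tnc (tenascin-C) rose in 5, Col12a1 in 4, and Postn (periostin) and Fn1 (fibronectin) in 3 each. Col1a1, Col1a2 and Col3a1, the chains of the main fibrillar collagens, rose on day 4 in both graft types. Col6a1, Col6a2 and Bgn (biglycan) rose on day 4 in allografts, and Col13a1 rose on day 3 in isografts. The preparations are bulk samples, in which more cells of a type and more RNA per cell cannot be told apart.

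**Figure D1:**
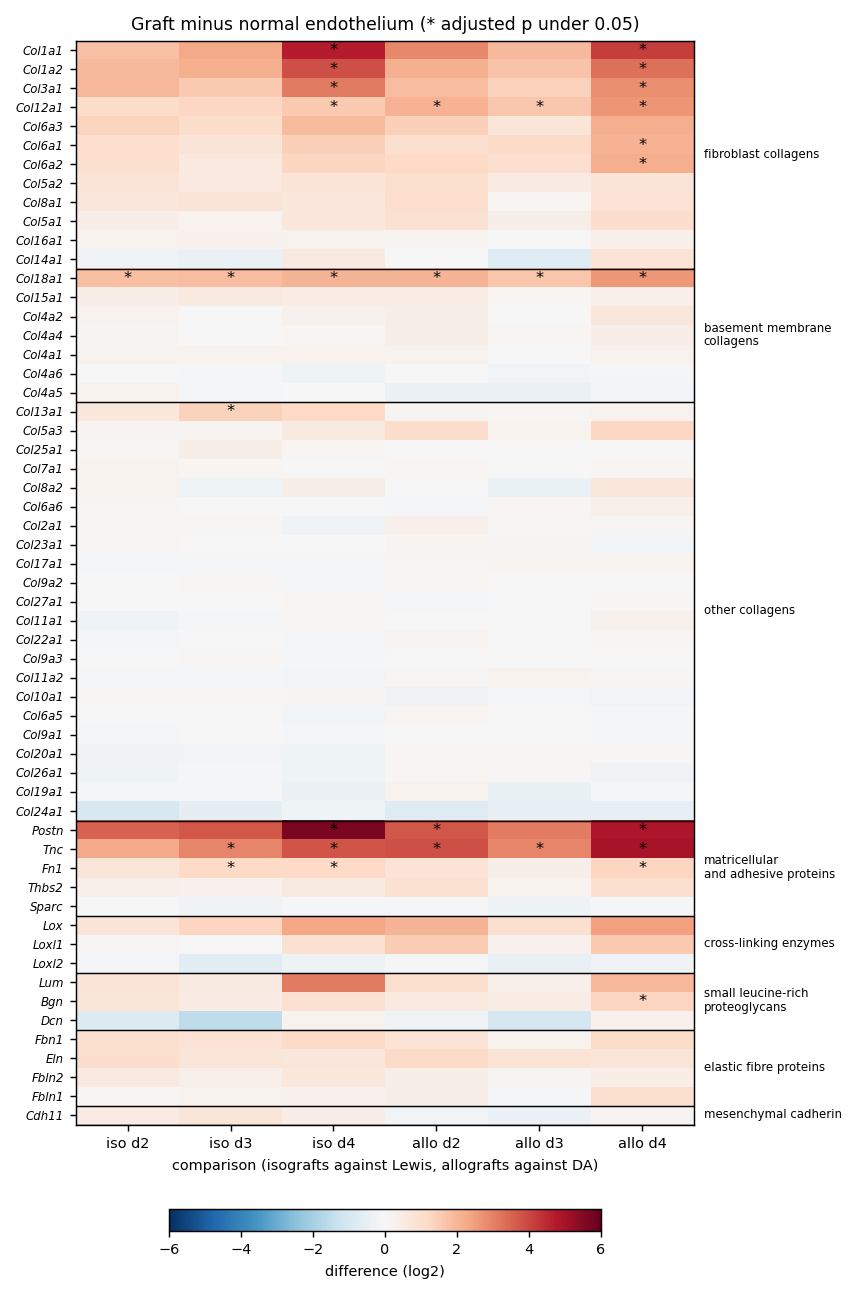
Differences (log2, graft minus normal endothelium) of the 57 matrix genes on days 2, 3 and 4 of isografts and allografts, with genes in rows grouped by role and comparisons in columns, and an asterisk where limma's adjusted p was under 0.05. The deep red cells lie with Postn, Tnc and the collagen I and III chains, and Col18a1 is the 1 basement membrane collagen with asterisks. The other collagens are paler, with the largest rises in Col13a1 and Col5a3, and only Col13a1 among them has an asterisk.

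The 8 members that rose in isografts on day 4 were all among the 11 that rose in allografts on day 4, which is 100% of the first list and 72.7% of the second. Over all genes, 312 were shared, or 84.1% of 371 and 30.5% of 1022. These comparisons use different normal hearts. Single arrays moved the counts, which are given here without the share of all genes called in the same fits. With any 1 of its 6 arrays left out, the isograft count of day 3 was 1. On day 4 of isografts it was 3 without Lewis replicate 1 or 2 or isograft replicate 1 or 3, and 4 without Lewis replicate 3. On day 3 of allografts it was 1 when any 1 DA array or graft replicate 1 or 3 was left out. On day 4 of allografts it was 5 without DA replicate 2 or without graft replicate 2 or 3, 6 without DA replicate 3, and 21 without graft replicate 1. Of the 31 calls of a member in a comparison, 13 held when each array was left out in turn: the 6 of Col18a1, those of Tnc on day 4 of isografts and days 2 and 4 of allografts, those of Col12a1 on days 2 and 4 of allografts, and those of Postn on day 4 of both graft types.

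Counting arrays without a model, all 3 graft arrays lay above all 3 normal arrays for 18, 21 and 22 members in the isograft comparisons of days 2, 3 and 4, beside 9.87%, 12.2% and 12.9% of all genes. For allografts these were 11, 12 and 20 members beside 12.2%, 10.4% and 14.0%. Among the 12 fibroblast collagens the numbers were 8, 9 and 9 in isografts and 4, 5 and 9 in allografts. In the other direction, all 3 graft arrays lay below all 3 normal arrays for 1, 0 and 0 members in isografts and 2, 1 and 2 in allografts. These were Col24a1, Col10a1, Col4a6 and Col26a1, and the share of all genes in this direction was not counted. The median difference of all members was 0.19, 0.18 and 0.24 in isografts and 0.21, 0.13 and 0.32 in allografts, against medians near 0 over all genes.

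Periostin is a secreted matricellular protein that binds collagen and is a mark of activated cardiac fibroblasts. It had the largest difference of any member on day 4 of isografts. Postn signals in normal Lewis endothelium were 4.64, 4.18 and 5.07, and in normal DA endothelium 6.37, 5.10 and 5.49. Isografts gave 6.64, 9.54 and 8.35 on day 2, 9.84, 7.59 and 7.63 on day 3 and 10.09, 9.75 and 10.97 on day 4. Every isograft array lay above every normal array, and of the earlier isograft arrays only replicate 1 of day 3 reached the range of day 4. Allografts gave 7.74, 8.62 and 11.78 on day 2, 10.49, 8.11 and 7.56 on day 3 and 8.48, 12.48 and 10.55 on day 4. These too lay above all normal arrays, but replicate 3 of day 2, replicate 1 of day 3 and replicate 2 of day 4 stood far above the other arrays of their group. Postn rose by 5.64 (SE 1.03, 49.9-fold, limma adjusted p = 0.00251) in isografts on day 4. In allografts it rose by 3.72 (SE 1.03, limma adjusted p = 0.0337) on day 2 and by 4.85 (SE 1.03, adjusted p = 0.00373) on day 4. The other differences were large but missed the threshold with limma: 3.54 and 3.72 in isografts on days 2 and 3 (adjusted p = 0.102 and 0.0608) and 3.06 in allografts on day 3 (adjusted p = 0.158). The day 2 allograft call was lost without replicate 3 of that group, at 2.52, and without DA replicate 2 or 3.

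Tenascin-C is a large matricellular glycoprotein that is scarce in the adult heart and appears at sites of injury. It had the largest difference of any member on day 4 of allografts. Tnc signals were 4.27, 4.18 and 4.59 in normal Lewis and 4.21, 3.99 and 4.11 in normal DA endothelium. Isograft values were 6.32, 7.67 and 5.89 on day 2, 8.22, 6.90 and 6.72 on day 3 and 8.03, 7.36 and 8.95 on day 4. Allograft values were 6.99, 7.51 and 9.38 on day 2, 8.42, 6.19 and 6.54 on day 3 and 7.27, 10.18 and 9.74 on day 4. No graft array reached down to the normal range, and within groups the same arrays stood high as for Postn. Tnc rose by 2.94 (SE 0.72, limma adjusted p = 0.0326) on day 3 and by 3.77 (adjusted p = 0.00396) on day 4 of isografts. Its difference on day 2 of isografts was 2.28 (limma adjusted p = 0.159). In allografts it rose by 3.86, 2.95 and 4.96 (limma adjusted p = 0.00222, 0.0319 and 0.000119), the last a 31.2-fold change. The day 3 call in isografts was lost whichever of its arrays was left out, and that in allografts when any 1 DA array or graft replicate 1 or 3 was.

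Of the other matricellular and adhesive members, fibronectin links cells through integrins to collagen and fibrin. Fn1 gave 10.42, 10.87 and 10.61 in normal Lewis and 11.08, 10.06 and 10.65 in normal DA endothelium. It read 11.80, 12.16 and 11.54 on day 3 and 11.69, 11.70 and 12.07 on day 4 of isografts, and 11.47, 12.03 and 12.14 on day 4 of allografts. In these 3 groups every graft array exceeded every normal array of its strain. Fn1 rose by 1.20 and 1.19 in isografts (limma adjusted p = 0.0471 and 0.0429) and by 1.28 in allografts (adjusted p = 0.0112). The isograft calls were lost whichever of their arrays was left out, and the allograft call without DA replicate 2 or graft replicate 3. Thrombospondin 2, an antiangiogenic matricellular protein, had differences of 0.19 to 0.95 in the 6 comparisons, and Sparc, a collagen-binding protein that endothelial cells make in quantity, of -0.28 to -0.03; neither was called.

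**Figure D2:**
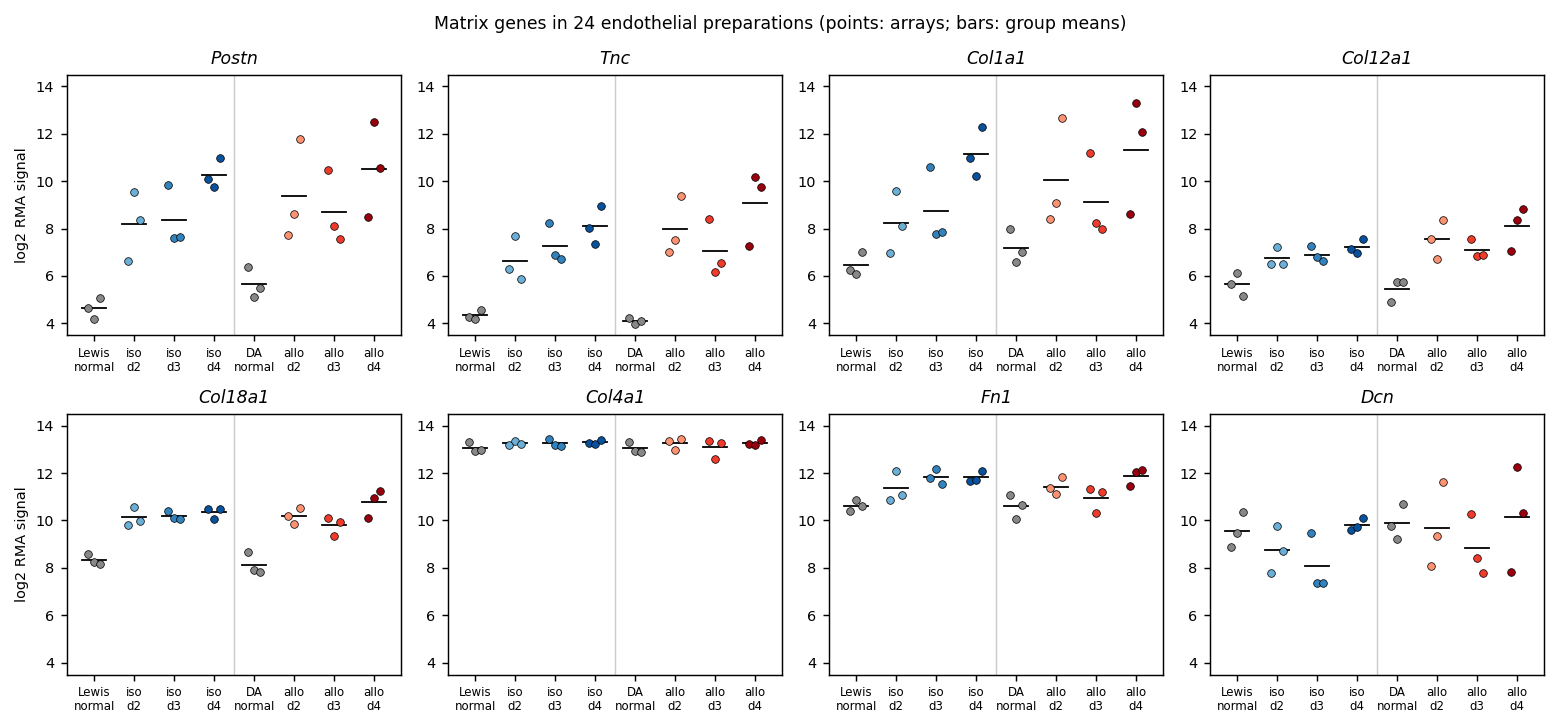
Log2 RMA signals (vertical axes) of 8 matrix genes in the 24 endothelial arrays by group (horizontal axes), with each array a point and each group mean a bar. The graft means of Postn, Tnc and Col1a1 lie above the normal means, and these genes vary most between the arrays of allograft groups, Col18a1 steps up evenly, Col4a1 stays level near 13, and Dcn spreads without a common shift.

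Of the 12 fibroblast collagens, 4 rose in isografts on day 4, 1 rose on day 2 and 1 on day 3 in allografts, and 6 rose in allografts on day 4. None rose in isografts on days 2 and 3. Their median difference was 0.97, 0.75 and 1.36 in isografts and 1.10, 0.86 and 2.14 in allografts, with 11 or 12 of 12 estimates above 0 in each comparison.

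Col1a1, the chain that supplies most of collagen I, gave 6.24, 6.10 and 7.02 in normal Lewis and 7.97, 6.57 and 7.02 in normal DA endothelium. Isografts gave 6.99, 9.58 and 8.11 on day 2, 10.60, 7.79 and 7.85 on day 3 and 10.97, 10.24 and 12.29 on day 4. All isograft arrays but replicate 1 of day 2 lay above the Lewis range. Allografts gave 8.41, 9.10 and 12.67 on day 2, 11.19, 8.25 and 7.97 on day 3, and 8.61, 13.31 and 12.06 on day 4. All 9 exceeded the DA arrays, some by little, and replicate 3 of day 2 and replicates 2 and 3 of day 4 stood over 12. Col1a1 rose by 4.72 (SE 1.17, 26.3-fold, limma adjusted p = 0.0269) in isografts and by 4.14 (SE 1.17, 17.6-fold, adjusted p = 0.0241) in allografts on day 4. On days 2 and 3 the differences were 1.77 and 2.30 in isografts and 2.87 and 1.95 in allografts, none called. The day 4 isograft call was lost without any Lewis array or graft replicate 1 or 3, and the day 4 allograft call without DA replicate 2 or 3 or graft replicate 2 or 3. A second probe set of Col1a1 gave smaller differences, from 0.77 on day 2 to 2.99 on day 4 of isografts.

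Col1a2, the partner chain of Col1a1 in collagen I, read 6.92, 6.89 and 7.48 in normal Lewis and 8.24, 6.88 and 7.94 in normal DA endothelium. Isografts gave 8.33, 10.24 and 8.61 on day 2, 10.44, 8.58 and 8.64 on day 3, and 10.55, 10.62 and 11.70 on day 4. Allografts gave 8.42, 8.89 and 12.20 on day 2, 10.84, 8.64 and 8.70 on day 3, and 8.99, 12.63 and 11.42 on day 4. Graft and normal arrays did not overlap in any of the 6 comparisons, though in allografts the gap on day 2 was narrow. Col1a2 rose by 3.86 (limma adjusted p = 0.0199) and 3.32 (adjusted p = 0.0208) on day 4 of isografts and allografts. Each call was lost without 4 of its 6 arrays in turn: Lewis replicate 1 or 2 or graft replicate 1 or 3 in isografts, and DA replicate 2 or 3 or graft replicate 2 or 3 in allografts. Its other probe set gave 3.65 and 3.33 for these differences. The 250 bases before its RefSeq start (GRCr8, chr4:33518307-33518556, plus strand) are shown as those of a called fibroblast collagen whose start is also the outer end of its gene. The capitals mark TATAAA, beginning 170 bases before the start, and CCAAT on the opposite strand.
Col1a2: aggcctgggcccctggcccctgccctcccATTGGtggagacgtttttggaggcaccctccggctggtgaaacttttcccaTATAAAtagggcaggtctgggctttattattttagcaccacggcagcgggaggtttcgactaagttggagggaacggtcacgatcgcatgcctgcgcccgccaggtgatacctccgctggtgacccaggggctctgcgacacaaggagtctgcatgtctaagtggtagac
Of 33469 such RefSeq windows of 250 bases, 2696 (8.06%) held TATAAA on the strand of the gene and 11385 (34.0%) held CCAAT on either strand. A window was matched for 39 members, of which 6 (15.4%) held TATAAA (Col10a1, Col13a1, Col17a1, Col1a2, Postn and Tnc) and 10 (25.6%) held CCAAT. For 19 of the 39, Postn and Tnc among them, the start used lies inside RefSeq's span of the gene, so part or all of the window does too. A match of letters is a description and not a site. Whether transcription begins at the RefSeq starts used, that of Col1a2 included, was not tested.

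Col3a1, which forms collagen III of pliable tissue, rose by 3.10 (SE 0.77, limma adjusted p = 0.0282) and 2.78 (adjusted p = 0.0223) on day 4 of isografts and allografts. Its call was lost in isografts without any Lewis array or graft replicate 1 or 3, and in allografts without DA replicate 2 or 3 or graft replicate 2 or 3. Col12a1, a collagen that decorates fibrils, was called on all 3 days of allografts. Its values on day 2 were 7.57, 6.72 and 8.35, against 4.89, 5.73 and 5.77 in normal DA endothelium, with no overlap. Col12a1 rose by 2.09, 1.64 and 2.64 in allografts (limma adjusted p = 0.00367, 0.04 and 0.000282) and by 1.58 on day 4 of isografts (adjusted p = 0.0404). The calls of day 3 in allografts and day 4 in isografts were lost whichever of their arrays was left out. The Col12a1 result rests on 1 of 3 probe sets: the other two gave -0.10 to 0.43.

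Collagen VI forms beaded filaments around cells. Col6a1 rose by 2.10 and Col6a2 by 2.20 on day 4 of allografts (limma adjusted p = 0.0112 and 0.0363). Col6a3 had a difference of 2.17 there and missed the threshold (adjusted p = 0.0682 with limma). The Col6a1 call was lost without graft replicate 2, and the Col6a2 call without any DA array or graft replicate 2 or 3. A second probe set of Col6a2 gave 0.33. Of the rest, Col5a1 and Col5a2, which start collagen I fibrils, had differences of 0.21 to 1.06 and 0.49 to 0.97. Those of Col8a1, a short-chain collagen of vessel walls, were 0.12 to 1.01, those of Col16a1 0.01 to 0.29, and those of Col14a1, a fibril-associated collagen of resting connective tissue, -0.76 to 0.81. None of these 5 was called.

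Fibroblast markers that are no members were counted beside the fibroblast collagens. Of 14 such markers 1 rose on each day of isografts, 0 on days 2 and 3 and 2 on day 4 of allografts, and 0 fell. Meox1 rose in isografts by 1.67, 1.47 and 2.08, and Cthrc1 and Thy1 rose in allografts on day 4 by 2.53 and 1.56. Pdgfra, the receptor that defines cardiac fibroblasts, had group means of 6.75 to 8.15 and was not called. The mean of the 14 markers in an array lay at 6.68 to 6.90 in normal Lewis and 6.71 to 7.02 in normal DA endothelium. In isografts it was 6.90 to 7.31, 6.72 to 7.34 and 7.10 to 7.63 on days 2, 3 and 4. In allografts it was 6.82 to 8.28, 6.81 to 7.45 and 7.06 to 8.50. On days 2 and 3 the graft and normal ranges of this mean overlapped in both graft types, and on day 4 every graft array lay above every normal array of its strain. The part of fibroblasts in the matrix results was not tested.

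Of the 7 basement membrane collagens, 1 was called, Col18a1, and it was called on every day in both graft types. Their median difference was 0.19, 0.04 and 0.22 in isografts and 0.35, 0.03 and 0.32 in allografts. Col18a1 gave 8.58, 8.26 and 8.14 in normal Lewis and 8.68, 7.90 and 7.84 in normal DA endothelium. Isografts gave 9.82, 10.58 and 9.997 on day 2, 10.41, 10.08 and 10.07 on day 3, and 10.47, 10.07 and 10.50 on day 4. Allografts gave 10.20, 9.87 and 10.54 on day 2, 10.13, 9.35 and 9.93 on day 3, and 10.10, 10.94 and 11.24 on day 4. The lowest graft array lay above the highest normal array of its strain in all 6 comparisons. Col18a1 rose by 1.80, 1.86 and 2.02 in isografts (SE 0.28, limma adjusted p = 0.00138, 0.000664 and 0.0002). In allografts it rose by 2.06, 1.66 and 2.62 (SE 0.28, limma adjusted p = 0.000137, 0.00189 and 5.39e-06), the last a 6.16-fold change. Its second probe set gave 1.67 to 2.76. The 250 bases before its RefSeq start (GRCr8, chr20:11473395-11473644, plus strand) hold neither TATAAA nor CCAAT and are shown beside those of Col1a2 because Col18a1 is the 1 member called on every day.
Col18a1: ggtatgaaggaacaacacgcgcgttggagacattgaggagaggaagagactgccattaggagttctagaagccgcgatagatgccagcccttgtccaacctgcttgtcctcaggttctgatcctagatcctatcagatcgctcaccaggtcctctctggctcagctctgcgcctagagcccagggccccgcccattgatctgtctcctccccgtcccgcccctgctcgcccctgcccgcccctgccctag

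Collagen IV forms the network of every basement membrane, and 0 of its 5 measured chains were called. Col4a1 gave 13.32, 12.92 and 12.96 in normal Lewis and 13.30, 12.95 and 12.91 in normal DA endothelium, and its differences in the 6 comparisons were 0.03 to 0.23. Col4a2, its partner chain, read 12.41, 11.69 and 11.66 and 11.57, 11.58 and 11.75 in the same normal groups. Isografts gave 11.95, 12.39 and 12.01 on day 2, 12.38, 11.75 and 11.67 on day 3, and 12.004, 11.71 and 12.79 on day 4, and allografts 11.64, 11.36 and 12.95 on day 2, 11.91, 10.82 and 12.22 on day 3, and 11.95, 12.46 and 12.59 on day 4. On day 4 of allografts the 3 graft arrays lay above the DA arrays, with a difference of 0.70 (SE 0.38, limma adjusted p = 0.281); the other comparisons overlapped. Col4a1 and Col4a2 are transcribed away from each other from starts 77 bases apart, with a GC-rich gap of 76 bases (78.9% G or C) between them that is shown because both chains share it (RefSeq, GRCr8, chr16:84885521-84885596, plus strand).
Col4a2-Col4a1: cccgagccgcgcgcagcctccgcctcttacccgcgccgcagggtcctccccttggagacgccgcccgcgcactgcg
Col15a1, which ties capillaries to the surrounding matrix, had differences of 0.13 to 0.54. Those of Col4a4 were 0.04 to 0.40, those of Col4a5 -0.35 to 0.20 and those of Col4a6 -0.24 to 0.00. None was called. Mean endothelial signals were 5.03 for Col4a4, 5.95 for Col4a6 and 7.95 for Col4a5, against 13.19 for Col4a1. Whether a change could show at the dim or the very high levels was not tested.

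The small leucine-rich proteoglycans bind collagen fibrils and set their width. Decorin is the one best known from resting tissue, and it was not called. Dcn gave 8.88, 9.48 and 10.37 in normal Lewis and 9.79, 9.21 and 10.70 in normal DA endothelium. Isografts gave 7.77, 9.77 and 8.72 on day 2, 9.47, 7.36 and 7.38 on day 3, and 9.59, 9.72 and 10.12 on day 4, and allografts 8.07, 9.33 and 11.64 on day 2, 10.28, 8.42 and 7.78 on day 3, and 7.84, 12.24 and 10.33 on day 4. Graft and normal arrays overlapped in every comparison, and in each graft group the highest Dcn array was also the highest for Postn. Its differences were -0.82, -1.50 and 0.23 in isografts and -0.22, -1.07 and 0.24 in allografts, none called.

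Lumican, a related proteoglycan, gave 7.07, 7.21 and 8.38 in normal Lewis and 8.73, 7.44 and 8.81 in normal DA endothelium. Its isograft values were 6.96, 9.68 and 8.31 on day 2, 10.03, 7.34 and 6.94 on day 3, and 10.58, 10.44 and 10.98 on day 4, and its allograft values 7.82, 8.62 and 11.49 on day 2, 10.59, 7.88 and 7.41 on day 3, and 7.88, 12.19 and 10.84 on day 4. The isograft arrays of day 4 all stood above the Lewis arrays, and the other groups overlapped with the normal ones. The difference on day 4 of isografts was 3.11 (SE 1.08, limma adjusted p = 0.153), and that on day 4 of allografts 1.98 (adjusted p = 0.288). Biglycan, which can also signal to immune cells when freed, rose by 1.31 on day 4 of allografts (limma adjusted p = 0.0459); the call was kept without graft replicate 1 and lost without any other array. Its other differences were 0.45 to 0.91.

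Because Dcn varied between replicates with the same arrays as Postn and the collagen I chains, differences were also taken within each array, a measure chosen after the values were seen. It is read between arrays only, since signals of different probe sets have no common scale. Postn minus Dcn was -5.30 to -3.42 in the 6 normal arrays and -1.14 to 0.85 in the 18 graft endothelial arrays. Col1a1 minus Dcn was -3.67 to -1.82 in normal and -0.79 to 2.17 in graft arrays. Tnc minus Dcn was -6.59 to -4.61 against -2.83 to -0.46, and Lum minus Dcn -2.27 to -1.06 against -0.81 to 0.99. For all 4 pairs the normal and graft ranges were apart, including the arrays that stood out within their groups. These pairs share Dcn, whose own differences were below 0 on days 2 and 3 of both graft types. For Col1a1 minus Col14a1 the ranges almost touched, at -0.4311 to 0.9313 in normal and 0.9352 to 5.0116 in graft arrays. Col18a1 minus Col4a1 was -5.06 to -4.63 in normal and -3.39 to -2.15 in graft arrays.

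**Figure D3:**
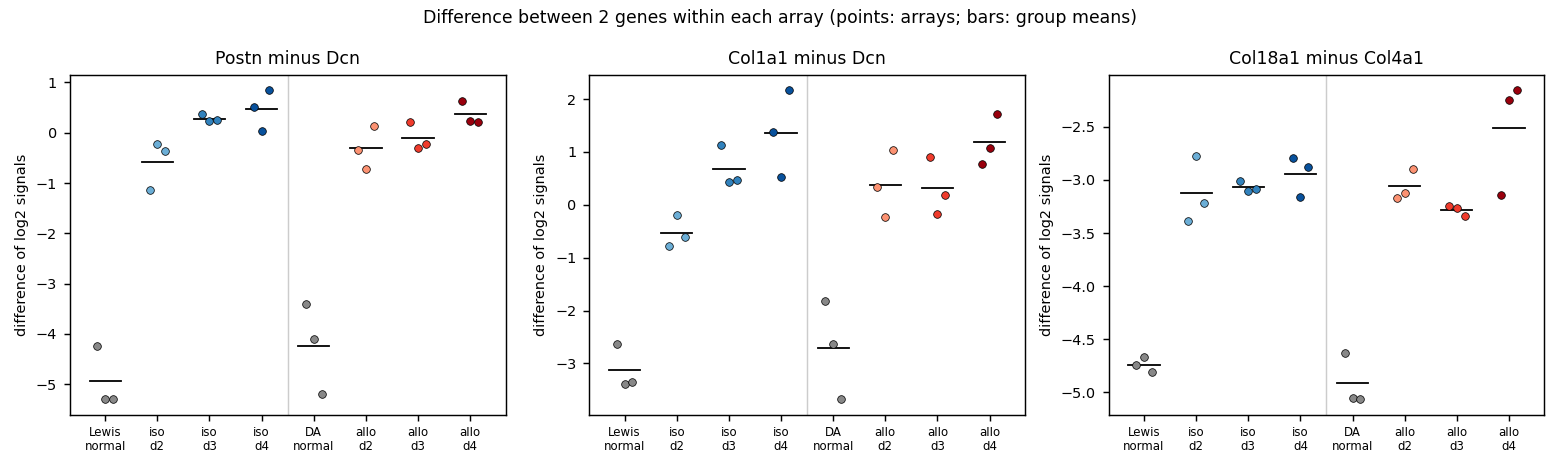
Difference of log2 signals between 2 matrix genes within each of the 24 endothelial arrays (vertical axes) by group (horizontal axes), with arrays as points and group means as bars. For Postn minus Dcn, the 18 graft arrays lie between -1.14 and 0.85 and the 6 normal arrays between -5.30 and -3.42, and for Col18a1 minus Col4a1 the graft arrays lie at -3.39 or above and the normal arrays at -4.63 or below.

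Of the 3 cross-linking enzymes, 0 were called. Lox, lysyl oxidase, gave 5.39, 5.56 and 5.61 in normal Lewis and 5.47, 5.15 and 5.13 in normal DA endothelium. Its isograft values were 5.14, 7.70 and 6.01 on day 2, 7.62, 6.40 and 6.38 on day 3, and 7.28, 7.60 and 8.68 on day 4, and its allograft values 6.27, 6.33 and 9.20 on day 2, 7.43, 5.34 and 5.93 on day 3, and 5.81, 9.21 and 8.18 on day 4. All graft arrays of days 3 and 4 of isografts and days 2 and 4 of allografts exceeded their normal arrays. Its largest difference was 2.48 on day 4 of allografts (SE 0.81, limma adjusted p = 0.0519), just outside the threshold. Lox was called there with the mean of its 2 probe sets, at 2.67 (limma adjusted p = 0.0445), without graft replicate 1, at 3.45, and with array weights, at 3.72. It was also called with the filter at 6 log2 (limma adjusted p = 0.0435), the intensity trend (0.0485) and median centring (0.0426).

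Loxl1, which acts mainly on elastin, gave 6.64, 7.33 and 7.21 in normal Lewis and 7.10, 6.76 and 6.93 in normal DA endothelium. Isografts read 6.66, 7.65 and 7.15 on day 2, 7.67, 6.87 and 6.65 on day 3, and 7.75, 7.84 and 8.34 on day 4, and allografts 7.06, 7.92 and 10.35 on day 2, 8.14, 6.98 and 6.42 on day 3, and 6.71, 10.32 and 8.42 on day 4. In the allografts of days 2 and 4, replicate 3 and replicate 2 stood over 10 while the rest lay at 6.71 to 8.42. Its differences were 1.52 and 1.56 in these 2 groups (limma adjusted p = 0.258 and 0.194), and on day 4 Loxl1 was called without graft replicate 1, at 2.45 (adjusted p = 0.0171), and with array weights, at 3.11. Loxl2, an enzyme of collagen IV cross-linking, had differences of -0.64 to -0.07, and its second probe set 0.06 to 0.51, of the opposite sign.

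Of the 4 elastic fibre members, 0 were called. Elastin, the recoil protein of vessel walls, read 7.82, 7.79 and 7.72 in normal Lewis and 7.91, 7.50 and 7.87 in normal DA endothelium. Isografts gave 8.43, 9.31 and 8.75 on day 2, 8.88, 8.39 and 8.31 on day 3, and 8.22, 8.10 and 9.02 on day 4, and allografts 8.19, 8.24 and 10.28 on day 2, 8.39, 8.39 and 8.88 on day 3, and 8.32, 9.06 and 8.01 on day 4. Every graft array exceeded the normal arrays of its strain, and the differences of Eln were 0.67 to 1.14, with a lowest adjusted p of 0.108 with limma. A second probe set of Eln gave -0.30 to 0.16.

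Fibrillin-1, the core of microfibrils, gave 8.50, 8.71 and 8.78 in normal Lewis and 9.30, 8.31 and 8.67 in normal DA endothelium. Isografts gave 9.30, 10.28 and 9.25 on day 2, 9.86, 9.36 and 9.40 on day 3, and 9.75, 9.84 and 9.89 on day 4. Allografts gave 8.89, 8.94 and 10.89 on day 2, 9.61, 8.39 and 8.98 on day 3, and 9.15, 10.79 and 9.59 on day 4. Isograft arrays lay above the Lewis arrays on all 3 days, while allograft arrays overlapped with the DA arrays. Its differences were 0.23 to 1.16. Those of the fibulins, which bridge elastin and microfibrils, were -0.07 to 0.94 for Fbln1 and 0.17 to 0.61 for Fbln2.

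Cdh11 is a cadherin of mesenchymal cells. It gave 9.67, 10.22 and 9.74 in normal Lewis and 10.32, 10.07 and 10.20 in normal DA hearts. Isografts gave 10.40, 10.32 and 10.41 on day 2, 10.75, 10.43 and 10.61 on day 3, and 10.22, 10.11 and 10.56 on day 4. Allografts gave 9.54, 10.89 and 9.71 on day 2, 10.26, 9.42 and 9.81 on day 3, and 10.06, 10.73 and 10.36 on day 4. The isograft arrays of days 2 and 3 lay above the Lewis arrays, and all other groups overlapped with the normal ones. Its differences were 0.50, 0.72 and 0.42 in isografts and -0.15, -0.37 and 0.19 in allografts, none called. Its other two probe sets gave -0.31 to 0.23 and -0.48 to 0.15.

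Of the 22 other collagens, Col13a1, a membrane-spanning collagen, was called once. It read 4.82, 5.16 and 5.02 in normal Lewis endothelium, and in isografts 5.55, 5.77 and 5.57 on day 2, 6.36, 6.23 and 6.52 on day 3, and 5.72, 5.55 and 7.28 on day 4. It read 5.18, 4.95 and 5.75 in normal DA endothelium, and in allografts 5.34, 5.91 and 5.14 on day 2, 5.40, 5.14 and 5.73 on day 3, and 5.55, 5.90 and 5.05 on day 4. Isograft arrays all lay above the Lewis arrays, and allograft arrays overlapped with the DA arrays. Col13a1 rose by 1.37 on day 3 of isografts (SE 0.33, limma adjusted p = 0.0292), a call lost whichever of its arrays was left out; in allografts its differences were 0.13 to 0.21.

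Col5a3, a minor fibril collagen, gave 5.97, 6.17 and 6.51 in normal Lewis and 5.84, 5.74 and 6.03 in normal DA endothelium. Isografts gave 5.84, 6.76 and 6.57 on day 2, 6.62, 6.24 and 6.33 on day 3, and 6.69, 6.498 and 7.02 on day 4. Allografts gave 5.94, 6.47 and 8.40 on day 2, 6.33, 5.93 and 5.92 on day 3, and 6.22, 7.56 and 7.60 on day 4. Only the allograft arrays of day 4 cleared the normal ones, and the difference there was 1.26 (limma adjusted p = 0.0688). Col5a3 was called without graft replicate 1, at 1.71 (limma adjusted p = 0.0101), with array weights, at 1.63, and with the replicate number as a block, at 1.26 (adjusted p = 0.0407). It was also called without the arrays highest in fibroblast collagens, replicate 3 of day 2 and replicate 2 of day 4, at 1.04 (limma adjusted p = 0.0476). On day 2 of allografts it was called without graft replicate 1, at 1.57 (limma adjusted p = 0.0368). Leaving such alternatives aside, 21 other collagens passed in no comparison, Col5a3 among them, with differences of -0.94 (Col24a1, day 2 of isografts) to 1.26 (Col5a3, day 4 of allografts), and 12 members of any role had no group mean of 6 or more.

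Whether the change differed between allografts and isografts was tested as a difference of differences. On days 2, 3 and 4, 0 of 57 members were called with limma, where 0%, 0% and 0.00703% of all genes were. At an unadjusted p under 0.05 with limma there were 0, 2 and 0 members, beside 3.38%, 2.35% and 5.51% of all genes. The 2 were Cdh11 and Col13a1 on day 3, which had lower changes in allografts. With array weights 1 member was called on day 4, and with only the compared groups in the fit 0 were called on any day. The estimates are wide: for Postn on day 4 the allograft minus isograft change was -0.79 (95% interval -3.82 to 2.23), for Col1a1 -0.58 (-4.02 to 2.87), for Tnc 1.20 (-0.93 to 3.32), for Col12a1 1.06 (-0.17 to 2.29) and for Col18a1 0.60 (-0.24 to 1.44). A like response was not shown by this.

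From day 2 to day 4, 0 members were called in allografts, isografts or their difference with limma, where 0.380%, 0.0352% and 0.00703% of all genes were. The unadjusted p was under 0.05 with limma for 1, 3 and 0 members, beside 8.42%, 2.41% and 2.43% of all genes. These members were Col6a1 in allografts, at 1.12, and Col1a1, Lum and Col11a1 in isografts, at 2.94, 2.35 and 0.32. Without replicate 3 of day 2, 1 member was called in allografts, and with array weights 30 were. The shares of all genes called in these fits are not given here. For Postn the day 4 minus day 2 difference was 1.12 in allografts (95% interval -1.01 to 3.26) and 2.10 in isografts (-0.04 to 4.24). Normal DA and normal Lewis endothelium differed in 0 members with limma, where 1.01% of all genes were called. At an unadjusted p under 0.05 with limma they differed in 1 member, Col24a1, and in 8.29% of all genes. No other alternative fit made a call among members in these comparisons.

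An SD over 1 log2 between the 3 arrays of a group was seen in a larger share of members than of all genes in every graft group. On day 2 of allografts, 20 of 57 members had an SD over 1 log2 (35.1%, against 0.964% of all genes), on day 3 it was 9 (15.8% against 0.563%) and on day 4 it was 13 (22.8% against 1.75%). In isografts 5, 6 and 1 members did (8.77%, 10.5% and 1.75%), against 0.464%, 0.176% and 0.0774% of all genes. In normal hearts 0 members did, against 0.218% of all genes in DA and 0.183% in Lewis. The median SD of the members was 0.45 on day 2 and 0.59 on day 4 of allografts, where that of all genes was 0.23 and 0.20. For every member with an SD over 1, the same array of the group was the highest: replicate 3 on day 2 (20 of 20), replicate 1 on day 3 (9 of 9) and replicate 2 on day 4 (13 of 13) of allografts. The lowest was replicate 1 for 19 of the 20 on day 2 and for 12 of the 13 on day 4. Of the fibroblast collagens, 8 of 12 on day 2 and 5 of 12 on day 4 of allografts had an SD over 1. No basement membrane collagen had an SD over 1 in any group, and the largest among them was 0.85.

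**Figure D4:**
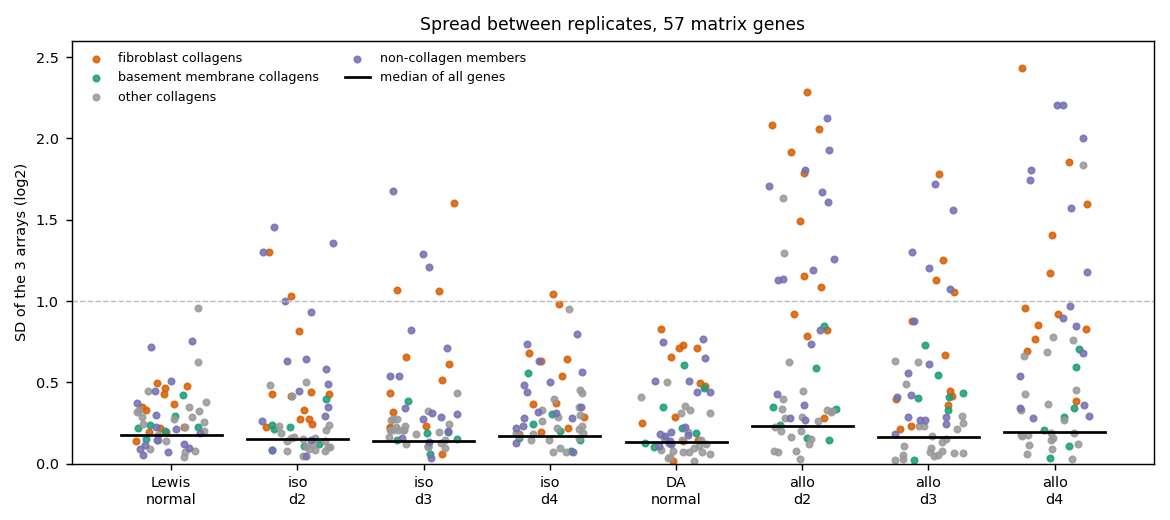
Standard deviation of the 3 arrays of a group (vertical axis, log2) for each of 57 matrix genes by group (horizontal axis), coloured by role, with a black bar at the median of all genes and a dashed line at 1. Members over the line number 20, 9 and 13 in allografts, 5, 6 and 1 in isografts and 0 in normal hearts, and none of them is a basement membrane collagen.

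Leaving out the array that was highest in each of these 2 groups, allograft day 2 replicate 3 and day 4 replicate 2, a choice made after the values were seen, left 3 calls on day 2 (Col12a1 at 1.68, Col18a1 at 1.89 and Tnc at 3.15). Postn was then 2.52 (limma adjusted p = 0.139). On day 4 it left 11, of which 10 were called with all arrays: Col1a1 was no longer called, at 3.15 (limma adjusted p = 0.0750), and Col5a3 was, at 1.04 (adjusted p = 0.0476).

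The genes that varied with the collagen chains were sought as deviations of each array from its group mean, correlated with the mean deviation of Col1a1, Col1a2 and Col3a1 over 24 arrays. The arrays share their normalization and their groups, and the r values are a description. Among members the highest r outside these 3 were those of Postn (0.979), Lum (0.968), Tnc (0.947), Lox (0.943), Dcn (0.941) and Col5a1 (0.940). Col4a1 had 0.420, Cdh11 0.296 and Col4a4 -0.422. The 10 genes outside the members with the highest r were Serpinf1 (0.947), Mfap4, Ptgis, Mfap5, Aspn, Cthrc1, Fndc1, Spon1, Dpt and Gpx8 (0.915). Most of these encode secreted proteins of connective tissue, and Mfap4, Mfap5, Cthrc1 and Dpt are also on the list of fibroblast markers. The 14 genes of that list had a median r of 0.527, from -0.339 (Gas1) to 0.942 (Mfap4). Lamc3 (-0.307) and Clec3b (-0.147) were also below 0. Without the 2 arrays farthest from their group, the same allograft day 2 replicate 3 and day 4 replicate 2, Serpinf1 had 0.919 and Gpx8 0.894 over 22 arrays. Pdgfra had r = 0.849 (0.768 over 22 arrays), Pecam1 0.141 (0.062), Ptprc 0.188 (0.104) and Cd68 0.229 (0.046).

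Taken as list means, the 12 fibroblast collagens and the 14 fibroblast markers deviated together, with r = 0.980 and rho = 0.971 over 24 arrays and r = 0.973 over 22. For the 7 basement membrane collagens r was 0.741 (rho 0.767, 0.693 over 22 arrays), with deviations of -0.41 to 0.27. For the 13 endothelial markers it was 0.237 (rho 0.181, 0.111), for the macrophage markers 0.400 (rho 0.280, 0.140) and for 11 mural cell markers 0.421 (rho 0.394, 0.214). Of the mural markers, 3 rose on day 4 of allografts, Tagln by 1.29, Des by 1.26 and Acta2 by 0.72, and 0 in the other comparisons. The mean of the mural markers was 7.69 to 8.39 in normal Lewis and 7.15 to 7.66 in normal DA arrays. Of 7 mesothelial markers 1 rose, on day 4 of isografts, and 1 fell on days 3 and 4 of isografts and days 2 and 4 of allografts. Of 5 platelet markers 2 rose on days 2 and 4 of allografts and 1 on days 3 and 4 of isografts, and of 2 Schwann cell markers 0 changed.

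**Figure D5:**
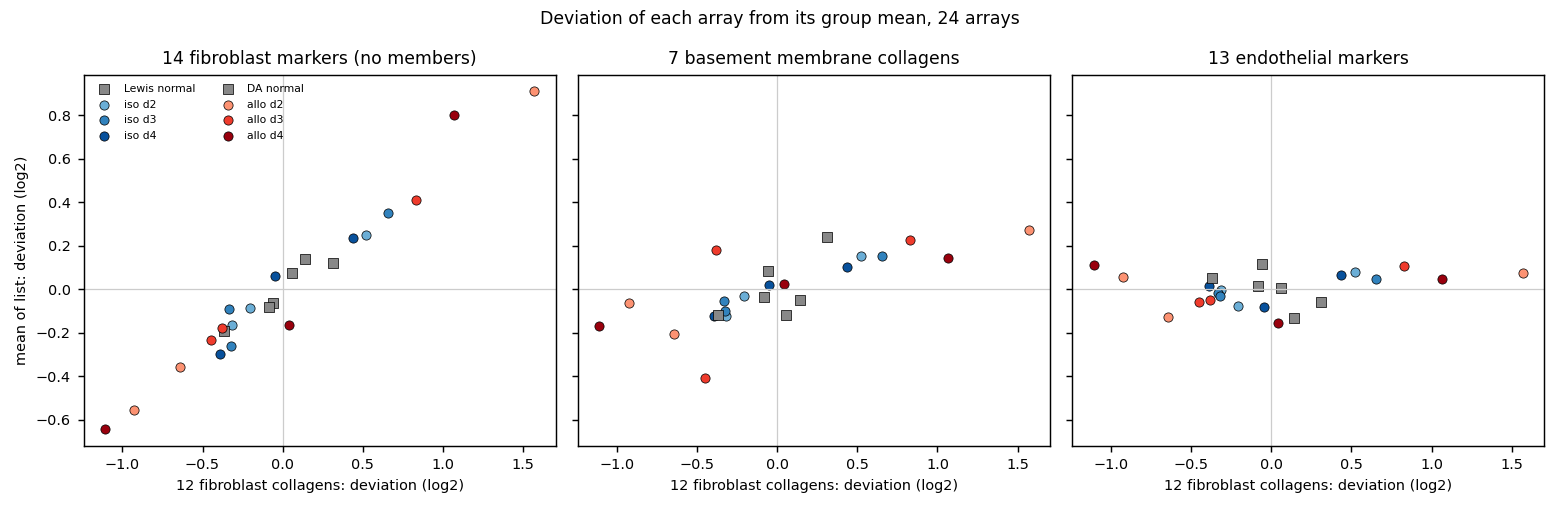
Deviation of each of 24 arrays from its group mean (log2) for the mean of 12 fibroblast collagens (horizontal axes) against that of 14 fibroblast markers, 7 basement membrane collagens and 13 endothelial markers (vertical axes), coloured by group, with normal arrays as grey squares. The mean of the fibroblast markers follows that of the collagens closely (r = 0.980), while the mean of the endothelial markers lies flat around 0 (r = 0.237). Single fibroblast markers had r of -0.339 to 0.942 with the mean of Col1a1, Col1a2 and Col3a1.

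Genes of the wider matrix pathway were counted on lists of non-members. Of 18 measured genes of collagen synthesis and processing, 0 rose in isografts, and in allografts 1 on day 2, 0 on day 3 and 4 on day 4. The 4 were Pcolce, an enhancer of procollagen trimming (2.12), P4ha3, a prolyl hydroxylase subunit (1.26), P4hb (0.54) and Plod3, a lysyl hydroxylase (0.53). Among 14 basement membrane proteins that are no collagens 0 rose, and Agrn (agrin) fell by 0.88 on day 4 of allografts. Among 5 collagen receptors 0 rose, and Itga1, a subunit of a collagen-binding integrin, fell by 1.22 there.

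Of 24 other interstitial matrix proteins 2, 4 and 3 rose in isografts and 5, 2 and 7 in allografts, and Ltbp1, which stores latent TGF-beta in the matrix, fell by 1.16 and 1.40 on days 2 and 4 of allografts. Mgp, the matrix Gla protein that restrains calcification, rose in all 6 comparisons, by 0.71 to 1.39. Spp1 (osteopontin) rose in 5 of them, by 2.66 to 4.48. Of 10 genes that induce matrix genes, Inhba, the subunit of activin A, rose by 2.04 and 1.88 on days 3 and 4 of isografts and by 1.71 on day 4 of allografts. Pdgfa rose by 2.69 on day 4 of allografts, and Tgfbr1 fell by 0.80 and 0.77 on days 2 and 4.

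The 4 leukocyte arrays may have been normalized apart from the endothelial ones. Their median over genes lay 0.359 higher, which was removed before the levels were set side by side. No test was made. All 4 lay below all 9 allograft endothelial arrays for 18 of 57 members (31.6%), beside 18.7% of all genes. They lay above all 9 for 3 members (5.26%), beside 16% of all genes. These 3 were Col17a1, Col22a1 and the basement membrane collagen Col4a6. Of the 7 basement membrane collagens 5 were below, namely Col4a1, Col4a2, Col4a5, Col15a1 and Col18a1, and so were Sparc and Cdh11. Col4a1 read 8.98 to 11.4 in leukocytes against 12.6 to 13.4 in allograft endothelium, and Cdh11 4.35 to 6.47 against 9.42 to 10.9. Of the 12 fibroblast collagens 4 were below.

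Several matrix genes were not low in the leukocyte fraction. Postn read 6.04 on day 2, 9.40 and 9.37 on day 3 and 8.62 on day 4, within or under the 7.56 to 12.5 of allograft endothelium and, on days 3 and 4, above the 4.18 to 6.37 of normal endothelium. Col1a1 read 7.20, 9.75, 9.55 and 8.87 in the same order. Fn1 read 12.96, 12.47, 11.74 and 12.33, against 10.3 to 12.1 in allograft endothelium, and Dcn 7.21, 9.50, 9.84 and 9.07 against 7.78 to 12.2. Within these arrays Postn minus Dcn was -1.17 to -0.10, beside -1.14 to 0.85 in graft and -5.30 to -3.42 in normal endothelium. The single day 2 array was the lowest of the 4 for Postn, Col1a1 and Dcn and the highest for Fn1.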

How the data were processed

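RNA of 28 samples was hybridised to Affymetrix rat arrays. The deposited values are log2 signals normalized by the authors with RMA (affy), per the submitters' processing notes; versions are not given in the sources used here. Leukocyte arrays had medians of 6.83 to 6.88 and endothelial arrays of 6.51 to 6.59, so they may have been normalized apart. Of 31099 probe sets, 20826 had 1 gene in the platform annotation, 436 several and 9780 were not listed; symbols were updated by RefSeq (GRCr8) for 20758, giving 14217 genes. Arrays give no read depth: their number limits the precision.

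The 8 endothelial groups were fitted together with limma 3.58.1 (R 4.3.3; lmFit, contrasts.fit and eBayes, 16 residual and 4.06 prior degrees of freedom) for 13 comparisons, with no filter on dim genes, two-sided. On simulated data for allograft day 4, over 14217 genes, 82 of 100 genes changed by 1 log2 and 100 of 100 changed by 2 log2 were called, with 10 false calls. The changed genes were drawn at random, with independent noise of equal spread in all groups. The recovery therefore does not carry over to members with a wide spread or with deviations shared by an array.

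Members, lists and tests were chosen with earlier results of these data known. Named members are all those outside the other collagens, and other collagens called at least once. Arrays are given singly for Postn, Col1a1 and the 2 members of each role with the largest difference, and further ones where described. From each list up to 3 called genes with the largest difference are named, besides the markers Pecam1, Cdh5, Pdgfra, Ptprc and Cd68 and the 10 genes that vary most closely with the collagen chains. Alternatives were the probe set rule, a filter at 6 log2, an intensity trend, array weights, median centring, fewer groups in the fit, the replicate number as a block, and leaving arrays out.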

Additional observations from a re-analysis of the deposited data

How the results depend on the processing

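The counts of called members depended on the weighting of arrays and on the groups that shared the estimate of spread. The cause was not tested. Counts under the alternatives are given without the share of all genes called in the same fit. They describe the processing and are not read as results about the members. With array weights 3 and 8 members were called on days 2 and 3 of isografts and 38 on day 4 of allografts, 1 for the allograft minus isograft change of day 4 and 30 between days 2 and 4 of allografts. These weights ran from 0.287 to 5.19, the largest for allograft day 4 replicate 2, and their estimation stopped before convergence. With only the compared groups in the fit, 4, 10 and 15 were called in isografts on days 2, 3 and 4, and 6 on day 4 of allografts, where Col1a1 (adjusted p = 0.105 with limma) and Col1a2 (0.0995) were lost, as was Postn on day 2 (0.0709). Leaving out each array in turn gave 1 call on days 2 and 3 and 3 to 7 on day 4 of isografts, and 3 to 6, 1 to 2 and 5 to 21 on days 2, 3 and 4 of allografts. It gave 0 to 1 between days 2 and 4 of allografts and 0 elsewhere. With the replicate number as a block, 1, 3 and 7 members were called in isografts, 4, 3 and 11 in allografts and 0 in the other comparisons. Of these 11 on day 4, 10 were also called without the block, and Col5a3 was added. Over all genes the median correlation of same-numbered arrays was 0.24 for replicate 1 (lowest -0.052), 0.0078 for replicate 2 and -0.0085 for replicate 3 (lowest -0.35). Over members these medians were 0.022, 0.26 and -0.080. Not every pair was above 0.1, so the numbers were not taken to pair the arrays.

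Of the 15 members followed under each alternative, 8 had an estimate that changed sign in 18 comparisons, none of them called. With array weights Loxl1 was -0.18 and -0.37 on days 2 and 3 of isografts, Lum -0.13 and Col4a2 -0.039 on day 3 of isografts and Col4a2 -0.11 on day 3 of allografts. With median centring Col4a2 was -0.035 and Loxl1 -0.041 on day 3 of isografts. Without allograft day 2 replicate 3 and day 4 replicate 2, Lum was -0.11, Cdh11 0.015 and Col4a2 -0.13 on day 2, and Dcn -0.82 on day 4. Leaving out single arrays gave ranges that cross 0. In isografts these were -0.16 to 0.34 (Loxl1) and -0.0094 to 0.45 (Col5a3) on day 2, -0.30 to 0.21 (Loxl1), -0.21 to 0.25 (Col4a2) and -0.41 to 1.13 (Lum) on day 3, and -0.065 to 0.49 (Col4a2) and -0.12 to 0.63 (Dcn) on day 4. In allografts on day 2 they were -0.57 to 0.10 (Cdh11), -0.049 to 0.40 (Col13a1), -0.13 to 0.66 (Col4a2), -1.20 to 0.59 (Dcn) and -0.11 to 1.73 (Lum). On day 3 they were -0.040 to 0.36 (Col13a1), -0.27 to 0.43 (Col4a2), -0.075 to 0.54 (Fbn1), -0.22 to 0.63 (Loxl1) and -0.69 to 0.90 (Lum), and on day 4 -0.82 to 1.39 (Dcn).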
